A study of Mus musculus with 4 samples.

Results

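The genes described here are 40 genes of mitosis and the spindle: cyclins and kinases of mitotic entry, spindle checkpoint proteins, the machinery of anaphase onset, kinetochore proteins, mitotic kinesins and proteins of cytokinesis. They were chosen by name, through the gene name that the array files give to each probe, and 39 of the 40 names were found, on 66 of the 61307 probes and among 50090 gene names. The remaining gene, Cdk1, stands on the array under its older symbol Cdc2a and was found by its RefSeq accession. Its values are given beside the others, but it is not in the counts over 39.

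Transcript levels were read on 4 custom mouse arrays (Agilent, Cy3 label alone) in C3H10T1/2 cells, an established mouse embryo fibroblast line used to study focus formation in culture. The 2 control arrays (A1 and A2) hold RNA of cells cultured for 6 weeks, and the 2 3MC+TPA arrays (B1 and B2) hold RNA of exposed cells, also labelled as 6 weeks. 3MC is a polycyclic hydrocarbon carcinogen, given at 2.5 µg/ml for 2 days and followed by 4 days in normal medium. TPA, a phorbol ester tumour promoter, was then added at 100 ng/ml, 2 times a week for 2 weeks, followed by 4 weeks in normal medium. These steps add up to more than the 6 weeks that the titles give for both groups, so a difference in culture age between the groups cannot be told apart from the exposure. All cells shared the line, the serum-containing medium and, per the labels, use while growing exponentially. The labels do not say whether foci were separated from the surrounding monolayer before RNA was made, nor whether replicate arrays stand for separate cultures. The p-values below therefore reflect no more than array-to-array spread, which could be technical. All 4 arrays lay on 1 slide, controls in the first positions, so position and group cannot be told apart. Replicate arrays are called control array 1 and 2 and 3MC+TPA array 1 and 2.

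Mitosis begins when cyclin B bound to CDK1 is activated, and Aurora and Polo kinases then build the bipolar spindle. The spindle assembly checkpoint holds the anaphase-promoting complex until kinetochores are attached, after which CDC20 switches that complex on, securin and cyclin B are degraded, and separase and the midzone kinesins divide the cell. Transcripts of these genes accumulate in G2 and M phase, in part through the CHR and CCAAT promoter elements, so that their level in a culture is widely used as a readout of how many cells divide.

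The promoter sequences of a few members are printed first, because many members share these elements. Any part of the elements in the differences between arrays described below was not tested. A RefSeq table of build GRCm38.p6, with windows of 300 bases (250 before to 50 after a start), held 37 start sites of 34 of the 40 genes. Entries for Ccna2, Cdc25c, Aurkb, Tpx2, Incenp and Kif20a were not found. The motifs searched, on both strands, were TTTGAA and TTCGAA (CHR-type) and CCAAT. Neither motif contains the other, though adjacent matches can share a base. In each stretch of 120 bases, 5′ to 3′ and ending just before the gene's annotated start, capitals mark these motifs in either orientation.

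Cdc20 promoter: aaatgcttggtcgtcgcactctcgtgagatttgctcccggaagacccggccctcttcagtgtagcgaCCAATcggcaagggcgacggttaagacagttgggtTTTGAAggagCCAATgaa
Ube2c promoter: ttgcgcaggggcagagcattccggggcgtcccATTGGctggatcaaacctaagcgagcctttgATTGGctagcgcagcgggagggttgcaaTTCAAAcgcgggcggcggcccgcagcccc
Cdk1 promoter: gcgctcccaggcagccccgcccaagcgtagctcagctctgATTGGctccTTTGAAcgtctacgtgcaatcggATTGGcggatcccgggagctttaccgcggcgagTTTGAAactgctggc
Top2a promoter: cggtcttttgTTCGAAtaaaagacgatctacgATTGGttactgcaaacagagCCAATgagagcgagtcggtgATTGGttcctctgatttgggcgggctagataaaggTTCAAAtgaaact
Ccnb1 promoter: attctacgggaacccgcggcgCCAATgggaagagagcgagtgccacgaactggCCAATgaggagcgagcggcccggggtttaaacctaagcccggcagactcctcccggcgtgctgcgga
Bub3 promoter: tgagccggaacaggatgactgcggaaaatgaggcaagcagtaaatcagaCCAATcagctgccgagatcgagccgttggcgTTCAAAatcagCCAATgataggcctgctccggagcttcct

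These stretches lie at chr4:118437344-118437463 (minus strand), chr2:164769809-164769928 (plus strand), chr10:69352913-69353032 (minus strand), chr11:99024200-99024319 (minus strand), chr13:100786487-100786606 (minus strand) and chr7:131560247-131560366 (plus strand), upstream of the first annotated base of each gene. In Cdc20 the CHR-type motif begins 18 bases before the start, in Ube2c 29, and in Bub3 40. Cdk1 holds 2, at 71 and 15 bases, and Top2a 2, at 110 and 13 bases. Ccnb1 shows 2 CCAAT boxes, at 99 and 67 bases, and no CHR-type motif in the printed stretch. Over the whole windows, a CHR-type motif was present at 29 of the 37 start sites (78.4%), against 6316 of 32851 start sites in the table (19.2%). A CCAAT box was present at 26 (70.3%), against 37.4% of all, and both motifs at 24 (64.9%), against 7.52% of all. A match is a run of letters and not a measured site of binding.

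Signals are given as log2 relative to the array's 75th percentile, so that 0 is the level of that percentile and 1 unit is a factor of 2. Where a gene has several probes, the brightest is used, and levels of different genes are not compared because probes differ. All 39 brightest probes were well above background on all 4 arrays. The control arrays had 75th percentile signals of 538.9 and 594.0 and the 3MC+TPA arrays 698.5 and 744.6, and between 32125 and 32512 probes an array were well above background, with no spot saturated. The labelled fibroblast identity was checked against markers: 10 of 10 fibroblast markers were well above background on all 4 arrays, their summed level (log2) lying between 10.66 and 10.94. Of the markers of other cells, 3 of 7 epithelial, 4 of 7 leukocyte, 0 of 5 endothelial, 2 of 4 adipocyte and 2 of 5 muscle genes were well above background on all 4, and Epcam, Cdh1, Ptprc, Itgam, Adipoq, Myod1 and Myog, among others, were not.

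The arrays were first compared gene by gene. Control array 2 gave the highest of the 4 signals for 39 of 39 mitosis genes, where 25.1% of all features with 4 values had their highest signal on it. Control array 2 exceeded control array 1 by a median of 1.07 (log2), a factor of 2.11, with a range from 0.32 for Bub3 to 1.73 for Ccnb1. At least a 2-fold excess was seen for 24 of the 39 genes, against 1.93% of all features, and no member was 2-fold lower, against 1.7%. The median over all features was -0.03. With 1 array on each side this difference has no replicate check and no test. In RNA made from many cells together, fewer dividing cells and less of each transcript per cell cannot be told apart.

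**Figure D1:**
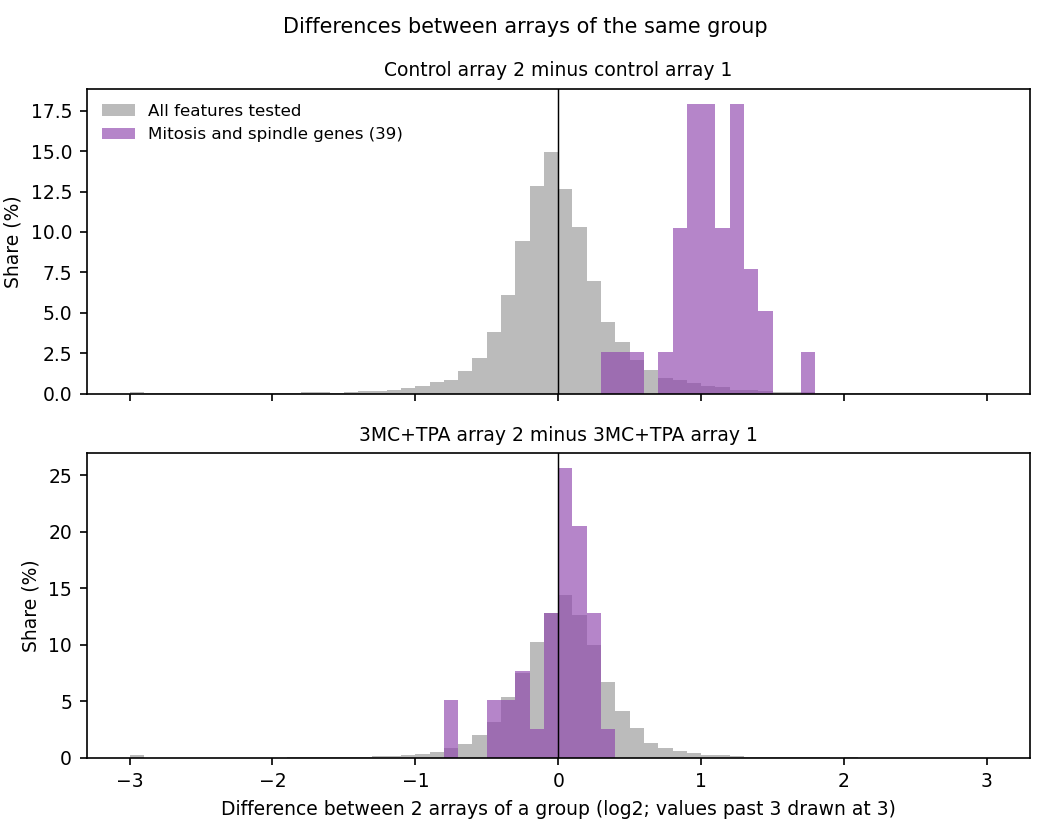
Distribution of the difference between the 2 control arrays (top) and between the 2 3MC+TPA arrays (bottom), in log2 on the horizontal axis and as a share of features on the vertical axis, for all features tested (grey) and 39 mitosis and spindle genes (purple). The mitosis genes lie around 1.07 between the control arrays, all above 0, and around 0.06 between the 3MC+TPA arrays.

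The 2 3MC+TPA arrays were closer to each other. Their difference (array 2 minus array 1) had a median of 0.06 over the 39 genes, from -0.73 to 0.34, and 0 of 39 differed by a factor of 2, against 2.36% of all features. Their mean lay a median of -0.02 from control array 1, below it for 21 genes and above it for 18 (50.5% of all features lay below). Against control array 2 it lay below for 39 of 39 genes, by a median of -1.05. The 3 arrays other than control array 2 spanned a median range of 0.25 for these genes, and 0.48 for all features. The position of the 3MC+TPA arrays relative to control array 1 moved with the scaling: without any scaling their median was 0.40 above it, as was that of all features, at 0.41.

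**Figure D2:**
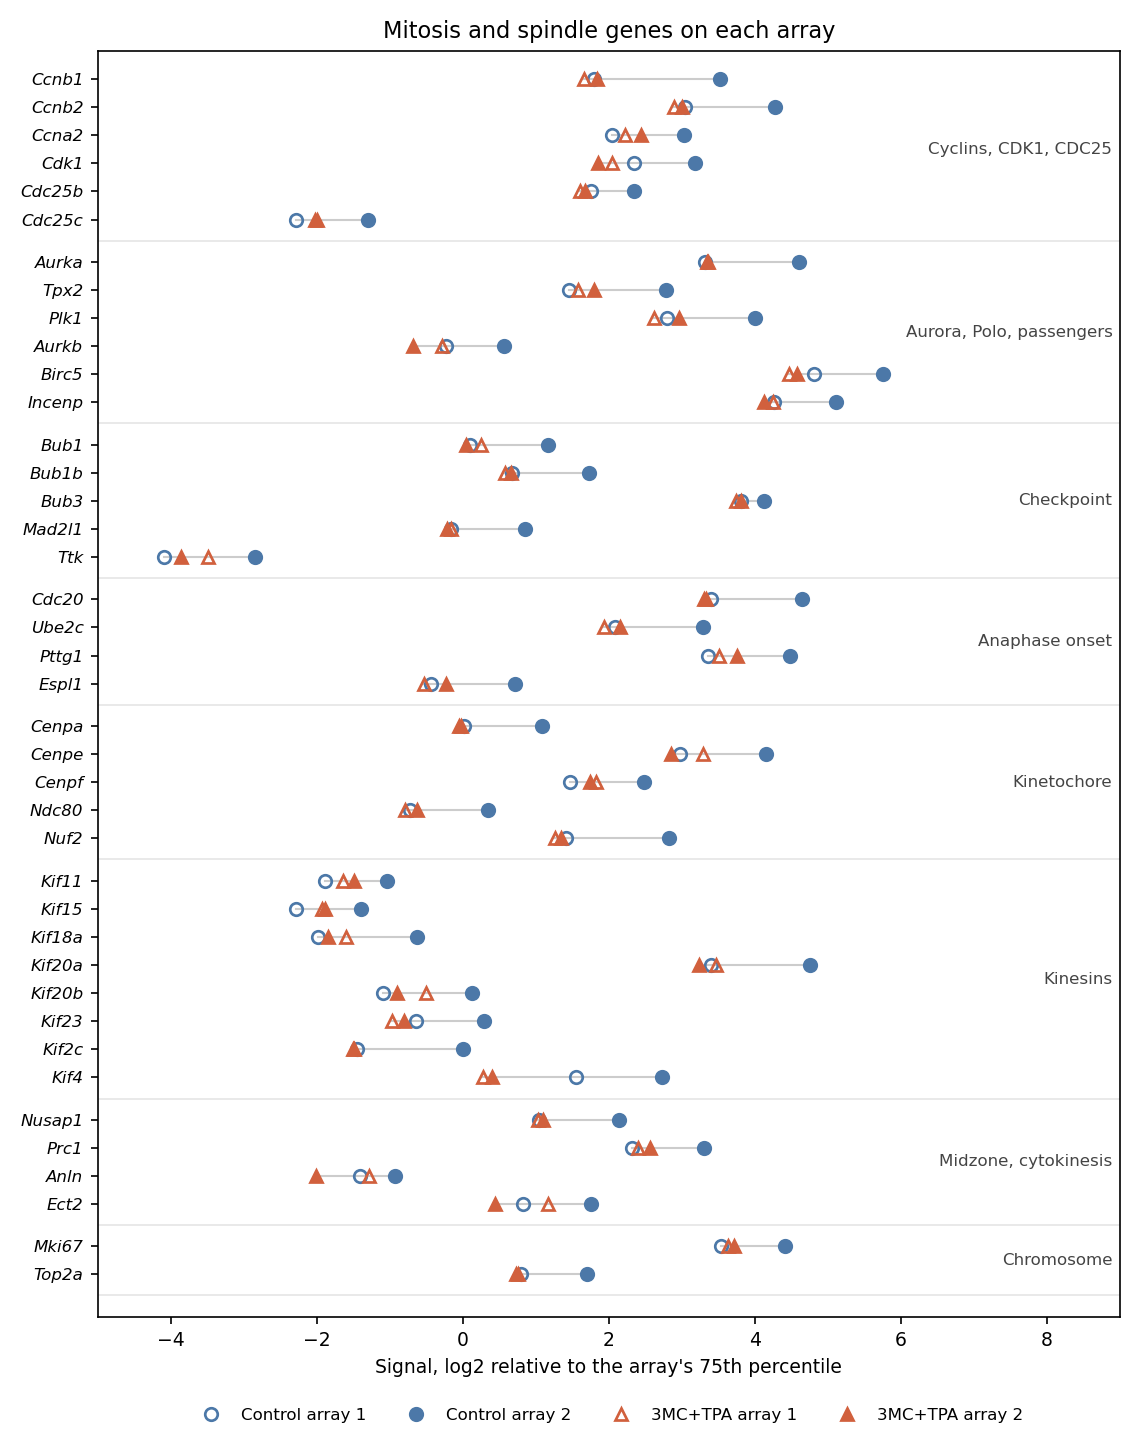
Signal of each of the 40 genes (rows, grouped by role) on each array, in log2 relative to the array's 75th percentile; open and filled circles are control arrays 1 and 2, and open and filled triangles 3MC+TPA arrays 1 and 2. The filled circle is the rightmost point in every row. Both triangles lie to the left of both circles for 13 of the 39 genes, Kif4 among them, and for Cdk1.

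Comparing the groups, limma on all 24977 features tested, with Benjamini-Hochberg adjustment over them, called 15.7% of all features changed. It called 1 of 39 mitosis genes lower in 3MC+TPA cells (Kif4) and 0 higher, where 8.37% of all features were called lower and 7.32% higher. At an unadjusted p under 0.05 limma also gave 1 of 39, against 33.6% of all features. All 39 log2 changes were below 0, as were 50.7% of those of all features, though 11 lay above 0 without scaling between arrays, where the median of all features was 0.34. Their median was -0.51 against -0.01 for all features. Both 3MC+TPA arrays lay below both control arrays for 13 of 39 genes, against 32.1% of all features, and above both for none, against 31.8%. The adjusted p over the 38 genes other than Kif4 ran from 0.18 to 0.89. Cdk1, which is outside the 39, had a limma adjusted p of 0.14 (unadjusted 0.044).

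The result depended on which control array was used. Against control array 2 alone, with the spread taken from the 3MC+TPA arrays and the lone control assumed to vary like them, limma called 22 of 39 genes lower, where 7.27% of all features were called lower, and the median change was -1.05. Against control array 1 alone it called 1 of 39 lower, again Kif4, where 5.5% of all features were, and the median change was -0.02. With either 3MC+TPA array left out, 0 of 39 were called by limma, with 2 genes at an unadjusted p under 0.05 without 3MC+TPA array 1 and 1 without 3MC+TPA array 2.

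**Figure D3:**
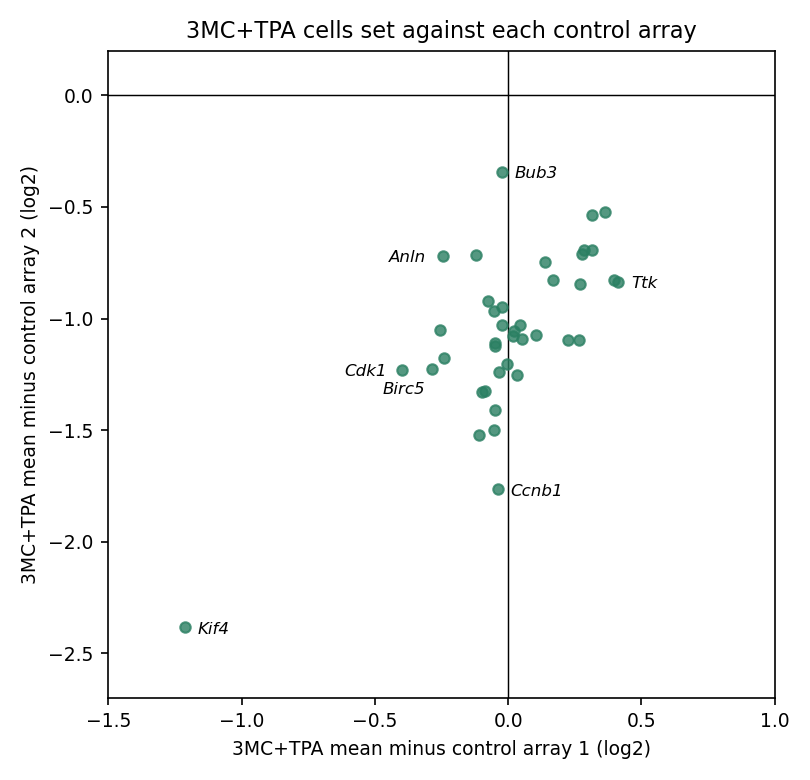
Mean of the 3MC+TPA arrays minus control array 1 (horizontal axis) and minus control array 2 (vertical axis), both in log2, with 1 point for each of 40 genes. The points gather around -0.02 on the horizontal axis and -1.05 on the vertical axis, and Kif4 stands apart at -1.21 and -2.38.

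Among the cyclins, CDK1 and its activating phosphatases, Ccnb1 encodes cyclin B1, the CDK1 partner of mitotic entry. Its signal was 1.79 and 3.52 on control arrays 1 and 2 and 1.66 and 1.84 on 3MC+TPA arrays 1 and 2. Control array 2 was thus 3.31-fold above control array 1, the widest gap among the 39 genes, while the other 3 arrays lay within 0.18 of each other. Its log2 change was -0.90 ± 0.56 (SE, n = 2 arrays a group, limma adjusted p = 0.32). This probe and a second of identical sequence carry accessions of predicted genes (XM entries), and the 3 probes on the NM entry showed the same order of the control arrays, with gaps of 1.58, 1.08 and 1.23. For Ccnb2, cyclin B2, the control arrays read 3.05 and 4.28 and the 3MC+TPA arrays 2.89 and 3.01. Here too control array 2 was the only high one. Cdk1, the kinase itself, read 2.34 and 3.18 in controls and 2.05 and 1.85 after 3MC+TPA. Both exposed arrays lay below both controls for Cdk1, with a log2 change of -0.81 ± 0.31 (SE, n = 2 arrays a group, limma adjusted p = 0.14). Ccna2, cyclin A2, and the phosphatases Cdc25b and Cdc25c had gaps between the controls of 0.98, 0.59 and 0.99. A dim Cdc25b probe, the least bright of 3, ran the other way between the controls, at -2.60 and -3.81, with -5.45 and -4.57 on the 3MC+TPA arrays. It was well above background on 3 of the 4 arrays and was not called, and no fold is given for it.

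For the Aurora and Polo kinases and the chromosomal passenger complex, control array 2 was again the highest array for all 6 genes, while the order of the other 3 arrays varied. Aurka, the centrosomal Aurora kinase, gave 3.32 and 4.60 in controls and 3.34 and 3.36 after 3MC+TPA, so that 3 arrays lay within 0.04 and control array 2 was 2.44-fold above control array 1. Tpx2, which activates and targets that kinase to spindle microtubules, gave 1.46 and 2.78 in controls and 1.57 and 1.79 after exposure. Plk1, the Polo kinase of centrosome maturation and mitotic exit, gave 2.79 and 4.00 in controls and 2.62 and 2.96 after exposure. In both, control array 2 was the high array and the other 3 signals spanned 0.33 and 0.34. Aurkb, the catalytic subunit of the passenger complex, read -0.24 and 0.56 in controls and -0.29 and -0.69 after exposure. Birc5 (survivin), another subunit, read 4.81 and 5.75 in controls and 4.47 and 4.58 after exposure. Both genes had both exposed arrays below both controls, with log2 changes of -0.65 ± 0.31 for Aurkb and -0.75 ± 0.33 for Birc5 (SE, n = 2 arrays a group) and limma adjusted p of 0.22 and 0.18. Incenp, the scaffold of the complex, had a gap of 0.85 between the controls. None of the 6 genes passed the test (0 at an unadjusted p under 0.05, limma), and the median log2 change was -0.61.

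The checkpoint genes hold the narrowest gap as well as wide ones. Bub3, which docks BUB1 and BUBR1 on kinetochores and also has roles outside mitosis, read 3.80 and 4.12 in controls and 3.75 and 3.81 after 3MC+TPA. Control array 2 was again the highest, but only 1.25-fold above control array 1, and without scaling between arrays Bub3 was the 1 gene of 39 not highest on control array 2. Bub1, the checkpoint kinase, gave 0.10 and 1.17 in controls and 0.24 and 0.04 after exposure. Bub1b (BUBR1), which inhibits CDC20, gave 0.67 and 1.73 in controls and 0.58 and 0.67 after exposure. Mad2l1, the MAD2 protein of the same inhibitory complex, gave -0.16 and 0.84 in controls and -0.16 and -0.21 after exposure. For the last 2 genes the other 3 arrays lay within 0.09 and 0.05 of each other. Ttk, the MPS1 kinase that starts checkpoint signalling, was dim, with -4.09 and -2.85 in controls and -3.50 and -3.87 after exposure. Its 3MC+TPA arrays lay between the controls, 0.41 above control array 1 on average, and 0 of the 5 checkpoint genes passed the test (0 at an unadjusted p under 0.05, limma).

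The 4 genes of anaphase onset had control gaps within a narrow range, from 1.11 to 1.24. Cdc20, the activator of the anaphase-promoting complex, read 3.40 and 4.64 in controls and 3.33 and 3.30 after 3MC+TPA. Ube2c, the E2 enzyme that works with that complex, read 2.08 and 3.28 in controls and 1.94 and 2.15 after exposure. Control array 2 stood 2.36-fold and 2.31-fold above control array 1, and the other arrays spanned 0.10 and 0.21. Pttg1 (securin) and Espl1 (separase) had gaps of 1.11 and 1.15. The log2 changes ran from -0.71 for Cdc20 to -0.29 for Pttg1, with limma adjusted p from 0.30 to 0.65.

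At the centromere and outer kinetochore, Nuf2, a subunit of the NDC80 complex that binds microtubules, read 1.41 and 2.82 in controls and 1.26 and 1.35 after 3MC+TPA, a control gap of 2.66-fold. Cenpe, the kinetochore kinesin of chromosome congression, read 2.97 and 4.15 in controls and 3.29 and 2.86 after exposure. Cenpa, the histone variant that marks centromeres, read 0.01 and 1.09 in controls and -0.05 and -0.02 after exposure. Control array 2 was highest in each, and for Cenpe the exposed arrays lay on either side of control array 1. Ndc80 and Cenpf, a large outer kinetochore protein, had gaps of 1.07 and 1.01. All 5 genes were at least 2-fold higher on control array 2, and log2 changes ran from -0.82 for Nuf2 to -0.19 for Cenpf, with limma adjusted p from 0.29 to 0.75.

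Kif4, the chromokinesin that works on chromosome arms and at the spindle midzone, was the 1 member called. Kif4 is also the only member whose gene lies on chromosome X, and any part of this location in its change was not tested. The Kif4 signal was 1.55 and 2.72 on control arrays 1 and 2 and 0.27 and 0.40 on 3MC+TPA arrays 1 and 2. Both exposed arrays lay well below both controls, and the controls differed by 1.17, as for the other genes. The change was -1.80 ± 0.40 (log2, SE, n = 2 arrays a group), 3.48-fold lower after 3MC+TPA, with a limma adjusted p of 0.042. Relative to control array 1 the exposed mean was -1.21, whereas the other 38 genes lay between -0.28 (Birc5) and 0.41 (Ttk). Against control array 2 alone the log2 change of Kif4 was -2.38, and against control array 1 alone it was -1.21. The call was lost with either 3MC+TPA array left out. It was also lost without scaling between arrays (0.053), with no filter on dim probes (0.18), with the mean of the gene's probes (0.052) and with the methods' t-test (0.27). A second Kif4 probe gave -0.04 and 1.19 in controls and -1.19 and -0.91 after exposure, a log2 change of -1.63 ± 0.42 (SE, limma over every probe, adjusted p = 0.061). The 2 probes are not independent readings of the transcript, since they share the 20 bases shown in capitals.

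Kif4 brightest probe: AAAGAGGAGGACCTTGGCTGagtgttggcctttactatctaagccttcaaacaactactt
Kif4 second probe: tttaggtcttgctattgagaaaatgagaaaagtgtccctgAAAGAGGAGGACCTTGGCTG

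The other 7 kinesins were also highest on control array 2, with the 3MC+TPA arrays below, above or on either side of control array 1. Kif2c (MCAK), which depolymerises microtubules at centromeres, had signals of -1.45 and -0.00 in controls and -1.49 and -1.51 after 3MC+TPA, so that 3 arrays lay within 0.06 and control array 2 was 2.72-fold above control array 1. Kif18a, which limits the length of kinetochore microtubules, read -1.99 and -0.63 in controls and -1.60 and -1.85 after exposure. Kif20a (MKLP2), which carries the passenger complex to the midzone, read 3.40 and 4.76 in controls and 3.47 and 3.23 after exposure. For Kif18a both exposed arrays lay between the controls, and for Kif20a they lay on either side of control array 1. Kif11, the motor that separates spindle poles, Kif15, which assists it, and Kif20b had 3MC+TPA means 0.32, 0.36 and 0.40 above control array 1. Kif23, the midzone kinesin of centralspindlin, lay at -0.24 relative to it. A dim second Kif11 probe was well above background on control array 2 alone, at -2.40, and between -6.99 and -6.90 on the other arrays, so it gives no fold.

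In the midzone and cytokinesis group the 2 3MC+TPA arrays differed most. Anln (anillin), a scaffold of the contractile ring, read -1.41 and -0.93 in controls and -1.29 and -2.02 after 3MC+TPA. Ect2, the exchange factor that activates RhoA at the midzone, read 0.83 and 1.75 in controls and 1.17 and 0.44 after exposure. Each was 0.73 lower on 3MC+TPA array 2 than on array 1, the widest differences between those arrays among the 39 genes. Nusap1, which bundles spindle microtubules, read 1.05 and 2.14 in controls and 1.03 and 1.09 after exposure. Prc1, the bundler of the midzone, read 2.31 and 3.31 in controls and 2.40 and 2.56 after exposure. In these 2 genes control array 2 stood apart and the other 3 arrays lay within 0.06 and 0.25.

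Mki67, the antigen Ki-67 that coats mitotic chromosomes and is the common stain for dividing cells, read 3.53 and 4.42 in controls and 3.63 and 3.71 after 3MC+TPA. The exposed arrays lay just above control array 1 and well below control array 2, and the log2 change was -0.30 ± 0.31 (SE, n = 2 arrays a group, limma adjusted p = 0.55). Top2a, the topoisomerase that untangles sister chromatids, read 0.79 and 1.70 in controls and 0.73 and 0.75 after exposure. Control array 2 was 1.88-fold above control array 1, the other 3 arrays were within 0.06, and the log2 change was -0.51 ± 0.32 (SE, n = 2 arrays a group, limma adjusted p = 0.33).

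The pattern was then read probe by probe. Of the 66 member probes, 62 passed the filter on dim probes and 61 were well above background on all 4 arrays, of which 57 were highest on control array 2. With every probe as a feature of its own, limma called 1 of the 62 lower, the brightest Kif4 probe, where 8.05% of all probes were called lower. Among the genes with several probes, 19 further probes, distinct in sequence from each other, were well above background on all arrays. Of them, 16 were highest on control array 2, with a median gap of 0.94. The second brightest Ccnb1 probe is counted among the 16, though it has the sequence of the brightest and is not a separate reading. Of the 61 probes, the 4 that were not highest on control array 2 belong to Bub1, Bub3 and Tpx2. The second Bub1 probe, on another RefSeq entry, read -0.88 and -0.96 in controls, a gap of -0.08 where the brightest probe had 1.07, and its 3MC+TPA mean lay at -0.12 relative to control array 1. The second Bub3 probe read 0.88 and 1.05 in controls and 0.59 and 1.11 after exposure. The 4 variant probes of Tpx2 share 1 sequence, stayed between -2.91 and -2.15 on all arrays and had control gaps of 0.09, 0.10, 0.24 and 0.54, against 1.32 for the brightest probe. The probes of Bub1 and of Tpx2 that disagree are printed because they read different stretches of the transcripts, with at most 5 bases in common.

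Bub1 brightest probe: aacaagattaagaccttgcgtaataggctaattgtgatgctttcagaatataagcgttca
Bub1 second probe: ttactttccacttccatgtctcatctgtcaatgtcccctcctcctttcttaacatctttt
Tpx2 brightest probe: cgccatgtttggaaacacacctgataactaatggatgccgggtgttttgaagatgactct
Tpx2 variant probe: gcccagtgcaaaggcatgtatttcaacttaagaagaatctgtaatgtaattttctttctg

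**Figure D4:**
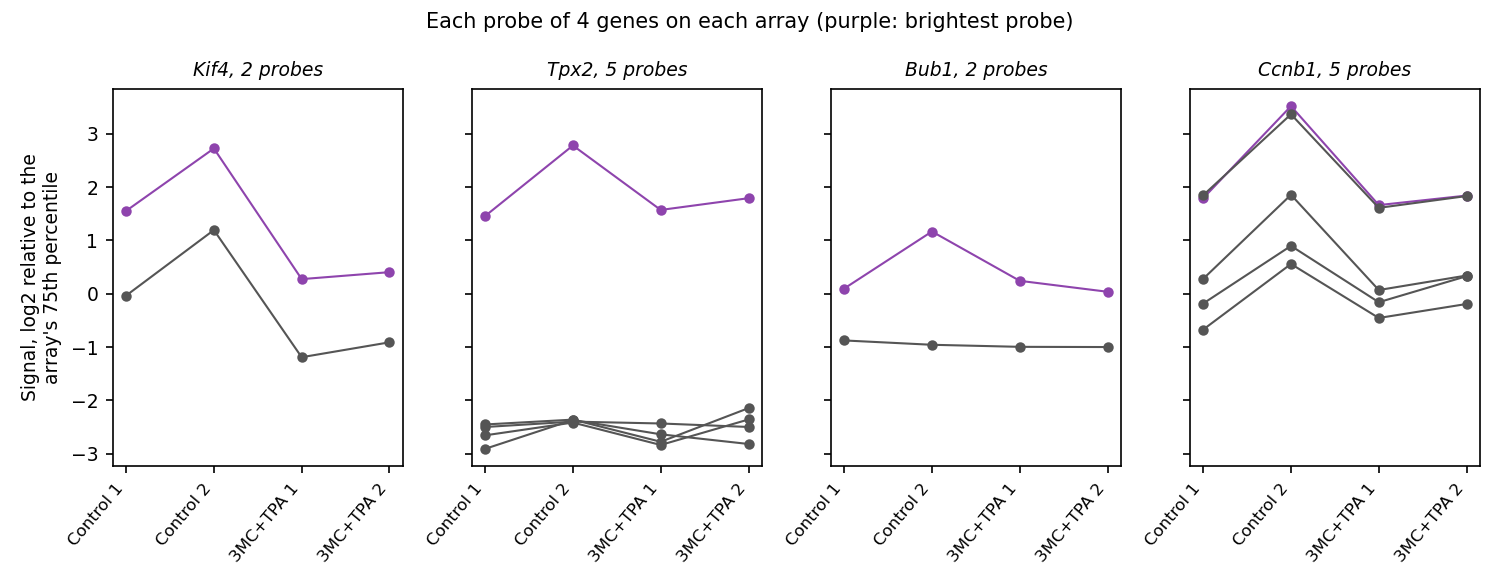
Signal of every probe of Kif4, Tpx2, Bub1 and Ccnb1 on each array, in log2 relative to the array's 75th percentile, with lines joining the readings of 1 probe and the brightest probe in purple. All probes of Kif4 and Ccnb1 peak on control array 2, whereas the dim probes of Tpx2 and the second Bub1 probe stay nearly level.

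The gap between the control arrays was also set out by promoter motif, with no test. The 26 genes with a CHR-type motif in the window had a median gap of 1.07 between the control arrays and the 8 without it 1.15. For the CCAAT box the medians were 1.07 (23 genes with) and 1.09 (11 without). Bub3, with both motifs in the stretch printed above, had the narrowest gap, and Ccnb1, with no CHR-type motif there, the widest.

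Other genes of cell division, from lists that do not overlap the 40, gave further readings of the same arrays. The shares over all features were 15.7% called and 33.6% at an unadjusted p under 0.05 (limma). Of 29 other kinetochore and passenger genes, 29 were highest on control array 2, with a median control gap of 0.94 and a median log2 change of -0.40; none was called and 2 had an unadjusted p under 0.05 (limma). The gene of this list with the largest change was Cenpi, a centromere protein, at -0.15 and 0.95 in controls and -1.09 and -1.30 after 3MC+TPA (log2 change -1.59 ± 0.38, SE, limma adjusted p = 0.052). Like Kif4, Cenpi had both exposed arrays well below both controls. Of 26 other spindle and cytokinesis genes, 24 were highest on control array 2, the median gap was 1.02 and none was called (0 at an unadjusted p under 0.05, limma). The largest change there was that of Ckap2, a spindle protein, which read -0.28 and 1.49 in controls and -0.22 and -0.24 after exposure (log2 change -0.84 ± 0.57, SE, limma adjusted p = 0.36). The 8 condensin subunits, which compact chromosomes, had a median gap of 0.57 with 6 highest on control array 2, none called and 0 at an unadjusted p under 0.05, Ncaph having the largest change at -0.73 (0.20 and 1.14 in controls, -0.12 and -0.01 after exposure). The 12 other mitotic kinases and regulators had a median gap of 0.69 with 9 highest there, none called and 2 at an unadjusted p under 0.05, Pkmyt1, an inhibitory kinase of CDK1, having the largest change at -0.87 (1.89 and 2.56 in controls, 1.27 and 1.43 after exposure).

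The list of anaphase-promoting complex genes, which holds its subunits together with the co-activator Fzr1, the inhibitor Fbxo5 and the E2 enzyme Ube2s, had a median control gap of 0.02. On control array 2, 4 of 15 were highest, and the median log2 change was -0.08, with none called and 0 at an unadjusted p under 0.05 (limma). The largest change was that of Cdc16, a subunit, which read 4.27 and 4.09 in controls and 4.01 and 3.93 after 3MC+TPA (log2 change -0.21). Among 21 transcriptional regulators of the B-MYB, FOXM1, MuvB and DREAM class, the median gap was 0.16 and 8 were highest on control array 2. Foxm1, the activator of G2 and M genes, and Mybl2 (B-MYB) were looked up after the pattern was seen. Foxm1 read -0.02 and 1.20 in controls and 0.31 and 0.61 after 3MC+TPA, a control gap of 1.23, whereas Mybl2 read -0.40 and -0.46 in controls and -0.83 and -1.03 after exposure. The 1 gene of the list called was E2f7, a repressor of the E2F family, which rose by 0.78 ± 0.18 (log2, SE, limma adjusted p = 0.044), reading -0.52 and -0.29 in controls and 0.27 and 0.49 after exposure. Over all features 7.32% were called higher, and 5 of 21 of this list had an unadjusted p under 0.05, against 33.6% of all features.

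Genes of DNA replication and S phase were also read, since DNA is replicated before mitosis. Of 44, 42 were highest on control array 2, with a median gap of 0.68. The 3MC+TPA mean lay below control array 1 for 38 of 44, by a median of -0.48, where the 39 mitosis genes had -0.02 and 21. Both exposed arrays lay below both controls for 33 of 44, against 32.1% of all features, and 23 had an unadjusted p under 0.05 (limma), against 33.6%. Limma called 4 of 44 lower and 0 higher, where 8.37% of all features were called lower and 7.32% higher. Pola1, the catalytic subunit of the priming polymerase, read 1.33 and 1.83 in controls and 0.10 and -0.32 after exposure (log2 change -1.69 ± 0.25, SE, limma adjusted p = 0.015). Cdc6, the loader of the replicative helicase, read -0.85 and -0.15 in controls and -1.79 and -2.22 after exposure (limma adjusted p = 0.032). Mcm4, a subunit of that helicase, read 4.32 and 5.03 in controls and 3.44 and 3.27 after exposure (limma adjusted p = 0.035). In all 3 genes both exposed arrays lay below both controls. The difference between the replication genes and the mitosis genes was not tested. Without scaling between arrays, 23 of 44 replication genes and 1 of 39 mitosis genes lay below control array 1.

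The 11 tested of 14 CDK inhibitors, D cyclins and related genes had a median gap of 0.19, with 6 highest on control array 2, 4 at an unadjusted p under 0.05 (33.6% of all features) and 1 called higher by limma (7.32% of all features). That gene was Cdk2, the S-phase kinase, whose brightest probe was not well above background on either control array. Its signal was at least 2.01-fold higher after 3MC+TPA. This bound took for each control the higher of its own signal and the dimmest signal well above background, and was not tested. Cdk2 entered the test through the 3MC+TPA arrays alone. Its call (limma adjusted p = 0.011) rests on control signals that were not well above background. The 10 fibroblast markers had a median control gap of -0.20, with 1 called higher and 2 lower, where 7.32% and 8.37% of all features were. Thy1, a surface glycoprotein of fibroblasts, moved between the control arrays opposite to the mitosis genes, at 2.98 and 0.86, and read 4.78 and 5.02 after exposure (log2 change 2.98 ± 0.69, SE, limma adjusted p = 0.047). The platelet-derived growth factor receptors Pdgfra and Pdgfrb fell by 1.47 and 1.02 (limma adjusted p of 0.021 and 0.022). Of the markers of other cells, Pparg, an adipocyte regulator, read 3.34 and 3.57 in controls and 2.25 and 2.09 after exposure (limma adjusted p = 0.011). Fabp4, the other adipocyte marker tested, changed by 0.06 (log2). Coro1a, a leukocyte actin-binding protein, read -1.72 and -1.63 in controls and -2.79 and -2.35 after exposure (limma adjusted p = 0.047). Of the 4 leukocyte markers tested, 2 had log2 changes below 0, and Cd68 moved the other way, by 1.07 (limma adjusted p = 0.13). Tek, an endothelial receptor, was not well above background on either control array and was at least 1.77-fold higher after exposure by the same untested bound. Its call (limma adjusted p = 0.0091) has the same limit as that of Cdk2. Vwf, the other endothelial marker tested, changed by -0.79 (log2) and was not well above background on all 4 arrays. Summed adipocyte markers were 3.92 and 4.22 in controls and 3.52 and 3.26 after exposure, and summed muscle markers 8.61 and 7.97 in controls and 8.09 and 8.26 after exposure. The part of any of these in the mitosis gene differences was not tested.

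**Figure D5:**
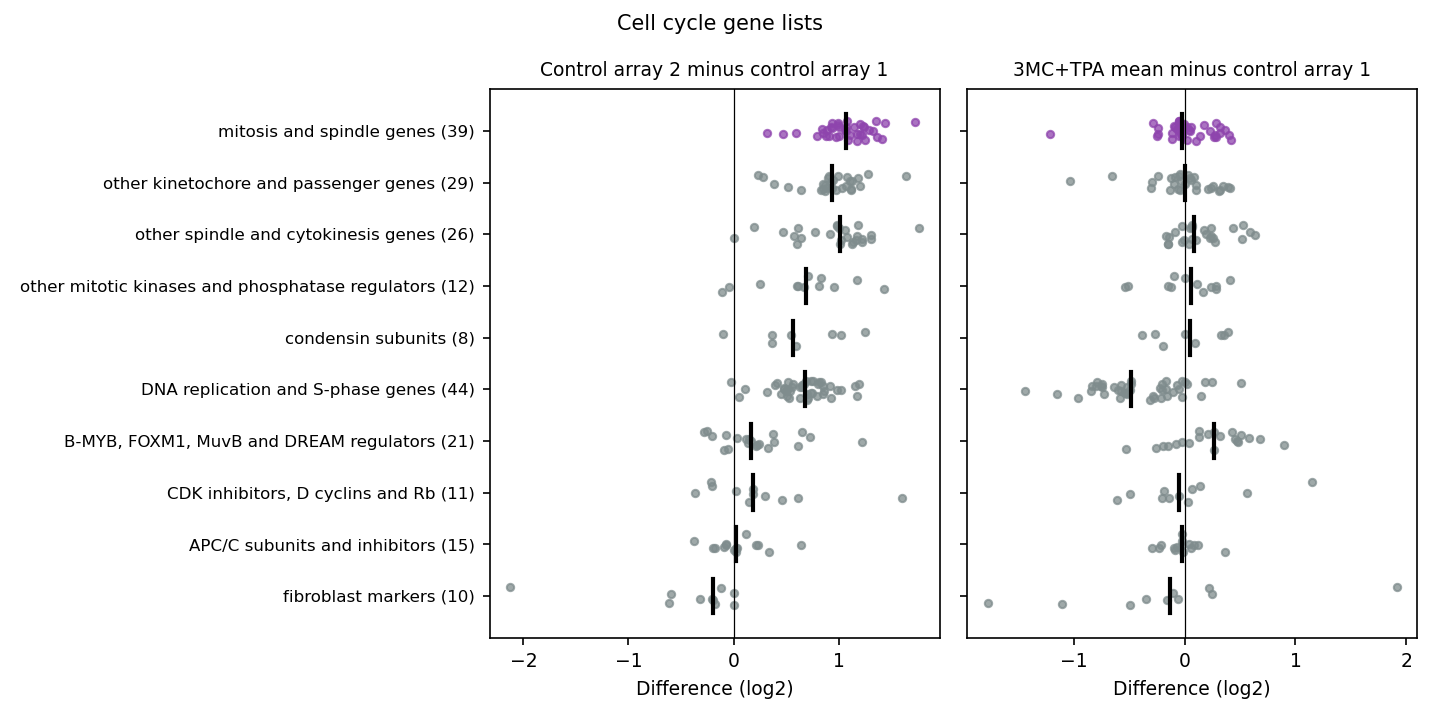
Difference between the control arrays (left) and between the 3MC+TPA mean and control array 1 (right), in log2, for each gene (point) of the mitosis genes and 9 other lists (rows, with the number of genes), with the list's median as a bar. On the left side all mitosis, kinetochore and spindle genes lie to the right of 0, as do 43 of 44 replication genes, and the replication genes alone among these 4 lists have a median below -0.4 on the right side, at -0.48.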

How the data were processed

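The members and the other gene lists were chosen with earlier results of these data known. Groups were taken from the sample titles. The processed signal, per the file headers, is an intensity from Agilent Feature Extraction 10.7.3.1 after background subtraction and detrending. The mean and background signals are raw intensity per the file headers and served for the normexp alternative (offset 50). The authors' deposited log2 table was set against the scanner files: its values are log2 processed signals after subtraction of each array's percentile 75 (within 0.01 for at least 61236 of 61307 probes), is not centred by gene, and has column medians of -4.29, -4.31, -4.39 and -4.35. The study's own test, per the labels' series text, was a t-test in GeneSpring with no threshold named.

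Computed here: log2 processed signal minus the 75th percentile of non-control spots, leaving out 1319 control spots an array and 20 to 68 outlier spots; spots of a probe averaged; 1 feature for each gene name, read by its brightest probe, tested when well above background on both arrays of at least 1 group (24977 of 50090, of which 24919 have 4 values). Groups were compared with limma 3.58.1 under R 4.3.3 (lmFit and eBayes, no covariates, 2-sided) and Benjamini-Hochberg adjusted p-values, threshold 0.05. The fit was tested on simulated data. The small number of arrays limits precision. All members are accounted for. Array values are given for called members and 8 fixed names. In each role group they are also given for the 2 genes with the largest change and the 2 with the largest control gap. Values of Kif20a and Anln are given in addition. Other lists are described by up to 3 called genes, or otherwise by the most changed gene. Alternatives were other backgrounds, scalings, filters, probe rules and tests, and leaving out each array. Treating every probe as a feature was added after seeing the data.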

Additional observations from a re-analysis of the deposited data

How the results depend on the processing

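Kif4, the 1 mitosis gene called, stayed past the threshold under normexp background correction, quantile and median scaling, the authors' deposited log2 values, the stricter filter and limma's trend and robust options. The count of mitosis genes called was 0 under no scaling between arrays (Kif4 adjusted p = 0.053), no filter on dim probes (0.18), the mean of a gene's probes (0.052), the second brightest probe (0.051, with 15 mitosis genes tested) and the methods' t-test (0.27), with 1, 1, 2, 1 and 0 genes at an unadjusted p under 0.05. With 1 array left out at a time it ran from 0 to 22, the median log2 change from -1.05 to -0.023, and the count over all features from 1187 to 3320. Over all features, the count was 6679 without scaling, 79.1% of them higher against 46.7% here, since the median of all features then moves to 0.34. It was 934 with no filter (50090 features), 885 for second brightest probes (5591 features) and 21 for the methods' t-test after Benjamini-Hochberg, 5697 before; the cause was not tested for the remaining changes. The median gap between control arrays ranged from 0.87 (second brightest probes) to 1.21 (no scaling), and control array 2 was highest for 39 of 39 genes under every scaling tried but no scaling, with 38.

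Log2 changes turned positive without scaling for Ccna2 0.15, Cdc25c 0.13, Bub3 0.17, Ttk 0.14, Pttg1 0.062, Cenpf 0.16, Kif11 0.24, Kif15 0.27, Kif20b 0.13, Prc1 0.022, Mki67 0.047. Leaving out control array 2 turned these, whose ranges over the 4 leave-outs were Ccna2 -0.69 to 0.29, Cdc25c -0.71 to 0.28, Aurka -1.25 to 0.034, Tpx2 -1.10 to 0.22, Bub1 -1.03 to 0.043, Ttk -0.84 to 0.41, Pttg1 -0.84 to 0.27, Espl1 -1.09 to 0.052, Cenpe -1.07 to 0.10, Cenpf -0.69 to 0.32, Ndc80 -1.05 to 0.020, Kif11 -0.53 to 0.32, Kif15 -0.52 to 0.36, Kif18a -1.10 to 0.27, Kif20b -0.83 to 0.40, Nusap1 -1.08 to 0.016, Prc1 -0.83 to 0.17, Mki67 -0.75 to 0.14.

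No pairing of the samples by replicate number was seen: deviations of same-numbered arrays correlated at 0.0019 over 24919 features. This correlation cannot show whether same-numbered arrays were cultured or handled together. With the replicate block 1 mitosis gene and 3408 features were called, and the median log2 change was -0.51.

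The number of arrays, 2 a group, limits the precision. The labels do not say whether arrays are separate cultures, and slide position cannot be told apart from group.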
